A study of Mus musculus with 148 samples.

Results

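Wells that the authors' annotation labelled Erythrocytes were examined in a single-cell atlas of immune cells from breast cancer lung metastasis. The annotation covered 24020 wells of 384-well plates, and 336 of them (1.40%) carried this label. They were chosen here by the label alone, which the authors had given from the same UMI counts. The other labels were 23425 immune wells, 165 outlier wells and 94 tumor wells.

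All mice were females on a C57BL/6 background whose cells carry a photoactivatable green fluorescent protein (PA-GFP). The lungs of the 3 control mice are called Normal. The other mice had received EO771-tdTomato cells, a mouse breast cancer line with a red fluorescent protein, in the mammary gland at 8 weeks of age. Pre-MET lungs (n = 3) and Primary tumors (n = 4) came from mice before the tumor was resected. After resection, lungs without detected metastases are called Relapse-free (n = 6), and lungs with metastases gave MET sections (n = 13), Distal normal tissue (n = 14), photoactivated MET Cores (n = 13) and photoactivated MET Invasive margins (n = 7). A sample was 1 tissue of 1 mouse, with its plates pooled, which gave 63 samples of 27 mice. The model rests on 1 cancer line, and most mice contributed several samples. Cells were sorted as CD31- CD45+ (gate CD31neg_CD45) or as CD31- photoactivated cells (CD31neg_PA), and a few samples were sorted on both marks (CD31neg_PA_CD45) or as CD45+ cells without photoactivation (CD31neg_PAneg_CD45). CD31 marks endothelial cells and CD45 marks leukocytes, and the lungs had been perfused.

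Erythroid cells fill themselves with haemoglobin, which joins alpha-globin chains to beta-globin chains around heme. In the adult mouse the alpha chains come from Hba-a1 and Hba-a2 and the beta chains from Hbb-bs and Hbb-bt, while Alas2 encodes the erythroid enzyme for the first step of heme synthesis. A maturing erythroid cell stops dividing, expels its nucleus and becomes a reticulocyte, which still holds globin RNA and loses the rest of its RNA gradually.

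The proximal promoters of the marker genes Hba-a1, Hbb-bs and Alas2 are shown because these genes served as the erythroid markers here. Each line gives the 120 bases before the RefSeq start (GRCm38.p6, the patch release of the mm10 build), 5′ to 3′ on the gene's strand. Hba-a1 lies at chr11:32283552-32283671 on the plus strand, Hbb-bs at chr7:103827929-103828048 on the minus strand and Alas2 at chrX:150547297-150547416 on the plus strand. Capitals mark the CACCC motif, the GATAA motif, the CCAAT motif and the ATATAA motif, letters found in many promoters of erythroid and other genes, each searched on both strands and without overlap between matches, so that CACCC also appears as GGGTG and GATAA as TTATC.
Hba-a1: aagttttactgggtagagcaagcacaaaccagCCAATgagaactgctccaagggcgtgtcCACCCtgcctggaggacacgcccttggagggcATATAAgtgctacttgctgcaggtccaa
Hbb-bs: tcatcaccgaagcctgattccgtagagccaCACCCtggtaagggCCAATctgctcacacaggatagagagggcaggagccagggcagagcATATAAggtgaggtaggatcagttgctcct
Alas2: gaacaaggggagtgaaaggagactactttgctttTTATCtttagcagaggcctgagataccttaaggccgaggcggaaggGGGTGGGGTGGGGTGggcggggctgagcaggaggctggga
Both globin promoters held 1 CACCC, 1 CCAAT and 1 ATATAA. The Alas2 window held 3 CACCC and 1 GATAA and neither of the other motifs. Among 32851 promoter windows of the same length, 31.7% held CACCC, 10.5% GATAA, 21.3% CCAAT and 4.47% ATATAA. A match is a description of the letters, not of binding.

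The label fitted the markers in few wells. Hba-a1 was detected in 331 and Hbb-bs in 309 of the 336 wells, but Alas2 in 15, with 29 unique molecular identifiers (UMIs, 1 for each captured mRNA molecule) in all. The 4 adult globins gave 0.0520% of a well's UMIs in the lowest well, 1.06% in the median well and 93.6% in the highest. The middle wells lay between 0.624% and 1.83% (quartiles). Only 21 wells held at least 10% globin and 11 held at least 50%, whereas 157 held less than 1%. A red cell or reticulocyte is known for RNA that is mostly globin, so most labelled wells did not have the composition their label names. They are therefore called labelled wells here, globin-rich at 10% or more and globin-poor below it. The wells on either side of that limit held 11.2% and 9.39%, 12 wells lay between 5% and 10%, and 3 between 10% and 20%.

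Few immune-labelled wells reached the globin share of the labelled wells. Of 23425 immune wells, 42 held at least 1% globin, 6 at least 2% and 1 at least 5% (8.78%), and 40 held at least the median share of the labelled wells. At the lower end the sets overlapped, since 1416 immune wells held at least the share of the lowest labelled well. No well of 500 or more UMIs without an annotation held 1% or more. The labelled wells were shallow, with a median of 966 UMIs (from 500, the minimum of the annotation, to 6301) and 372 genes. The median labelled well held 10 globin UMIs, and the lowest held 2. By count the sets overlapped more than by share. In sequencing batch SB112, described below, 97 of 3174 immune wells held at least 10 globin UMIs (up to 54), as did 157 of 281 labelled wells.

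**Figure D1:**
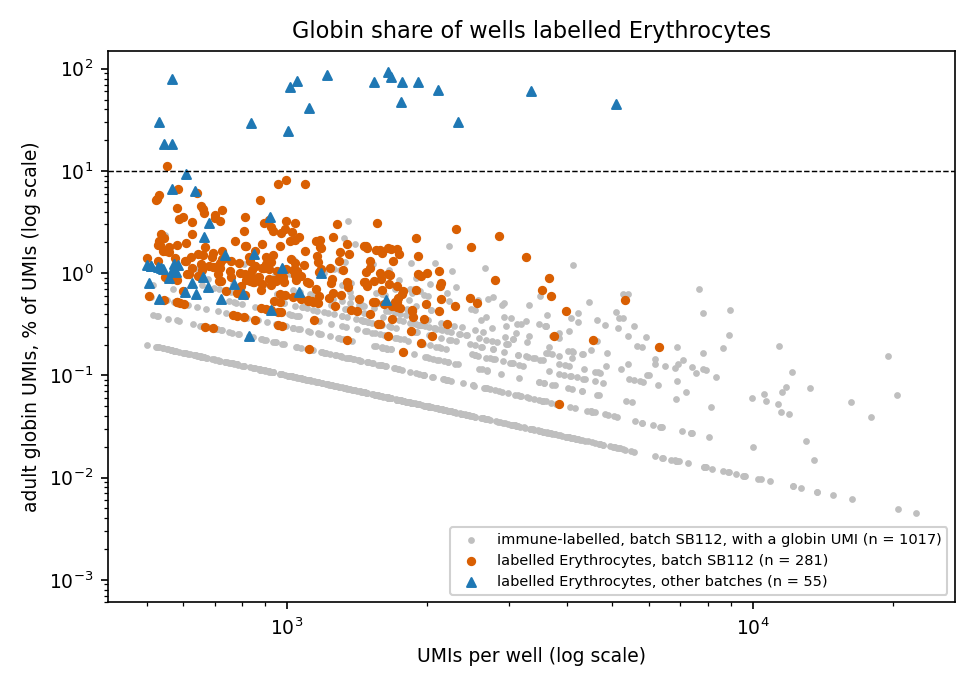
Globin share of a well's UMIs (%, log scale) against its total UMIs (log scale), with 281 labelled wells of sequencing batch SB112 as circles, 55 labelled wells of other batches as triangles, and the 1017 immune wells of batch SB112 with a globin UMI in grey. The dashed line is at 10%, above which 20 wells of other batches and 1 well of batch SB112 lie, and most labelled wells of the batch lie above most grey points, with an overlap at their lower end.

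Labelled wells were concentrated in 1 of 12 sequencing batches, named SB112 in the annotation. It held 281 of the 336 wells (83.6%) on 12 plates from mice 17 and 18, and these plates were the only ones of both mice. Batch and mouse therefore cannot be told apart. Every plate of the batch had between 14 and 32 labelled wells (5.14% to 11.8% of its annotated wells). Elsewhere no plate had more than 7, and 104 of 136 plates had none. The highest share on a plate elsewhere was 6.56% of its annotated wells, which lies within the range of the batch.

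The 4 samples of batch SB112 came from different tissues and gates and all held many labelled wells. In mouse 17 the label covered 82 of 834 wells of Distal normal tissue (9.83%, gate CD31neg_CD45), 88 of 949 wells of the MET Invasive margin (9.27%, gate CD31neg_PA) and 47 of 876 wells of the MET Core (5.37%, gate CD31neg_PA_CD45). In the Relapse-free lung of mouse 18 it covered 64 of 807 wells (7.93%, gate CD31neg_CD45). The 95% Wilson intervals, which cover counting error only, were 7.99% to 12.04%, 7.59% to 11.3%, 4.06% to 7.06% and 6.26% to 10.0%. The MET Core was lowest, and its interval did not overlap those of the other samples of mouse 17. It was also the only one with its gate. Its immune wells were the deepest, with a median of 1787.5 UMIs against 1563 in the margin and 1388 in Distal normal tissue. Tissue, gate and depth therefore cannot be told apart in this mouse.

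Outside this batch, 24 of 59 samples held 55 labelled wells. The MET Invasive margin of mouse 26 stood highest, with 9 of 205 wells (4.39%, interval 2.33% to 8.13%), and the Relapse-free lung of mouse 29 followed with 4 of 152 (2.63%). The larger Relapse-free sample of mouse 7 had 6 of 2017 wells (0.297%). Among the control lungs, mouse 3 had 4 of 604 wells, mouse 2 had 3 of 790 and mouse 1 had none of 688, which allows a share of up to 0.436%. No labelled well was found in Pre-MET lungs or Primary tumors, where the limit that a count of 0 allows lay between 0.561% and 1.00% of a sample's wells. The Primary tumors of mice 9, 10 and 38 made up sequencing batch SB132, which held no other sample. The immune wells of that batch had the lowest globin level of all batches. Tissue and batch therefore cannot be told apart for these tumors. Each of the 4 gates contained labelled wells. They made up 177 of 16224 wells in CD31neg_CD45, 109 of 5467 in CD31neg_PA, 47 of 876 in CD31neg_PA_CD45 and 3 of 1453 in CD31neg_PAneg_CD45, where the first 3 gates include plates of batch SB112 and the last does not.

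**Figure D2:**
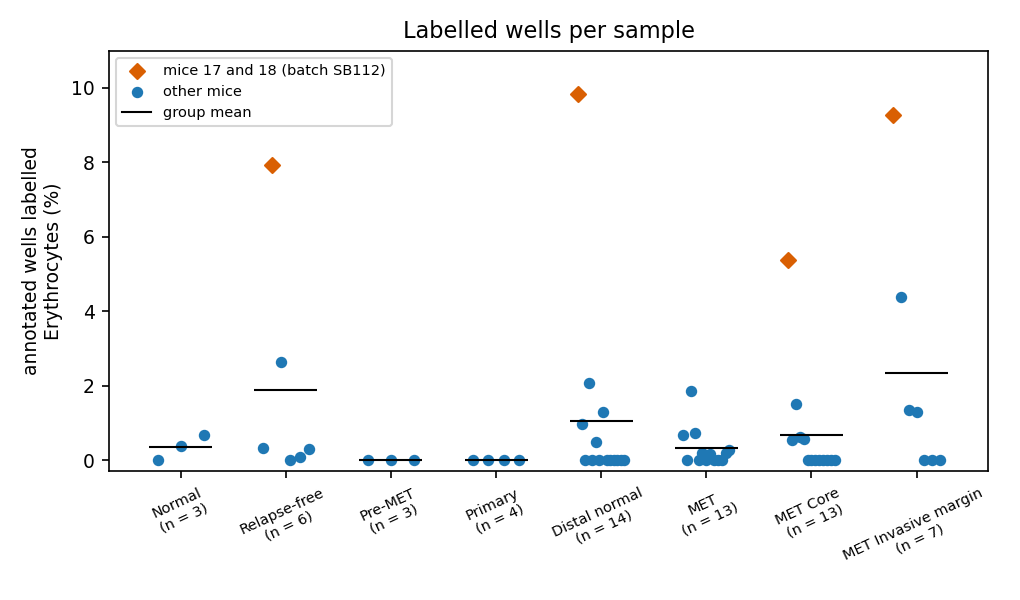
Percent of annotated wells labelled Erythrocytes in each sample, by tissue, with the samples of mice 17 and 18 as diamonds, other mice as circles and the group mean as a line. The diamonds lie at 9.83%, 9.27%, 7.93% and 5.37%, and each is the highest sample of its tissue.

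Globin levels were alike in the 4 samples of batch SB112. The median labelled well held 0.967% globin in Distal normal tissue, 1.06% in the MET Core and 0.926% in the MET Invasive margin of mouse 17, and 1.03% in the Relapse-free lung of mouse 18. Summed over wells, Hba-a1 reached 5194 CPM (UMIs of the gene per 1000000 UMIs of the summed wells) in Distal normal tissue, 5100 in the MET Core, 4158 in the MET Invasive margin and 4309 in the Relapse-free lung. Hbb-bs reached 3743, 3651, 2681 and 3040 CPM in the same order. The 55 wells of other batches, pooled, held 135999 Hba-a1 and 63863 Hbb-bs CPM, and globin made up 33.0% of their UMIs against 1.18% in batch SB112. Alas2 gave 1 UMI in Distal normal tissue, 1 in the MET Core, 3 in the MET Invasive margin and 1 in the Relapse-free lung, and 23 in the pooled wells.

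In batch SB112 the label recurred at the same plate positions. A plate position is a well coordinate such as A22, and it carries 1 of 384 cell barcodes of 7 bases, the short sequence that the reverse transcription primer adds to all mRNA of a well. All 148 plates share these 384 barcodes, and within batch SB112 each position recurs on all 12 plates. The positions labelled on the most plates, A22, B18, J2 and K15, and the position with the highest globin counts among those labelled on at least 5 plates, N12, are shown with their barcodes in capitals.
A22: CGTCCAA
B18: TCTAGTC
J2: AGATACC
K15: TATAGGC
N12: TAGTGGC
The closest pair among all barcodes differed at 2 bases. Barcodes of positions with a labelled well had a mean GC content of 50.2%, and the others 50.3%.

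The 281 labelled wells of the batch lay at 88 of the 380 positions that received a cell. Of these positions, 63 were labelled on at least 2 plates and held 256 of the wells, and 19 were labelled on at least 5 plates and held 123. Position A22 was labelled on 10 of the 11 plates where its well was annotated. B18 was labelled on 9 of 10, J2 on 9 of 12 and K15 on 9 of 11. The positions also recurred between the mice. Of 48 positions labelled in mouse 18, 43 (89.6%) were labelled in mouse 17, where 83 of the 380 positions were labelled. The 43 were 51.8% of those 83. Mouse 17 had 3 plates for each of its tissues and mouse 18 had 3 in all. The unequal numbers of plates bear on both percentages.

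**Figure D3:**
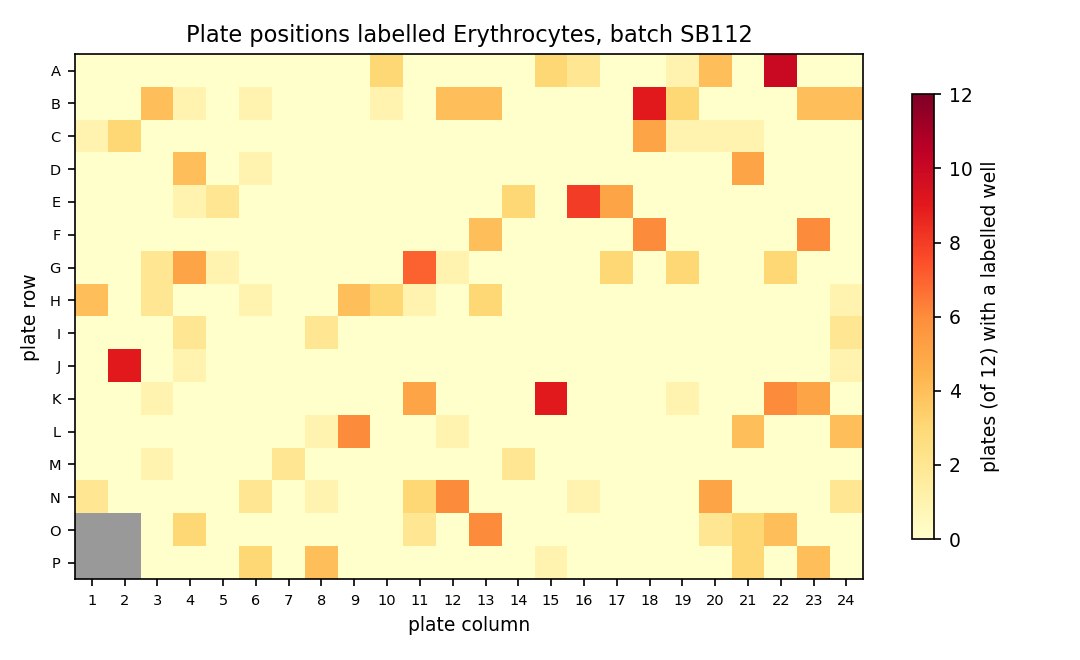
Map of the 384-well plate for batch SB112, with plate rows and columns on the axes and colour for the number of the 12 plates on which the position was labelled Erythrocytes. Labelled positions are scattered over the plate, the darkest is A22 with 10 plates, and the grey corner marks the 4 positions left without a cell.

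At these 5 positions, which were picked for their labels or their globin, the number of globin UMIs varied less from plate to plate than the total of the well. The 12 wells at N12 held 48 to 82 globin UMIs (median 62) while their total ranged from 116 to 4113 UMIs. At A22 the range was 13 to 28 globin UMIs (median 24.5) with totals from 143 to 3683. J2 held 18 to 33, K15 14 to 32 and B18 14 to 27. Some other labelled positions varied more, with 2 to 72 globin UMIs at D21, 2 to 66 at L21 and 0 to 47 at I8. At each of the 5 positions every well had globin, including wells that the authors labelled as neutrophils or monocytes and wells below the UMI minimum. At N12, 6 wells carried the label, 1 well of 4113 UMIs with 49 globin UMIs was labelled a monocyte (Mon_MHC-II), and 5 wells were below the minimum.

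**Figure D4:**
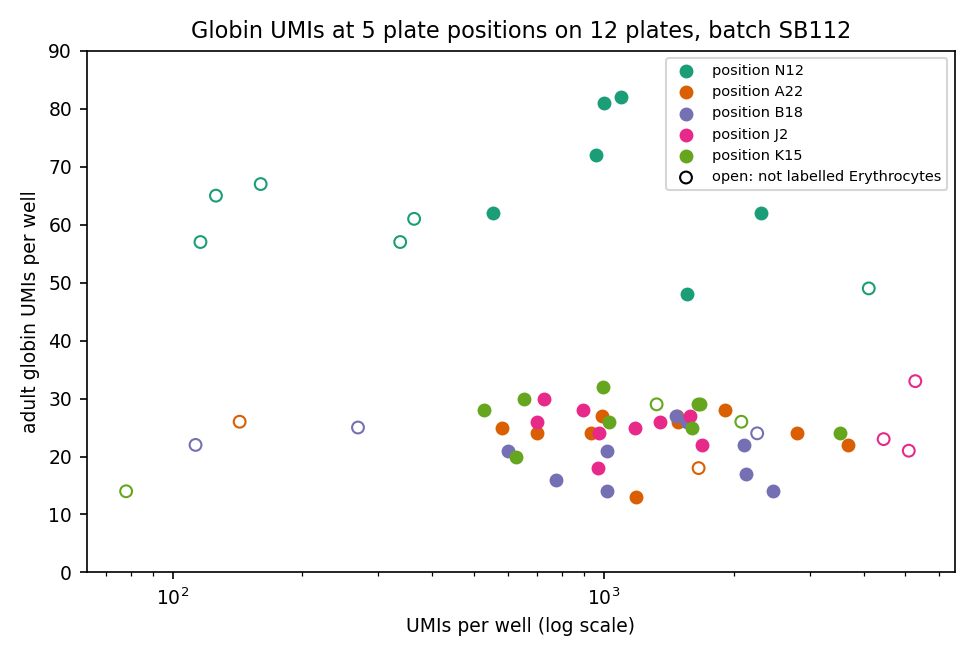
Globin UMIs per well (linear axis) against total UMIs per well (log scale) at 5 plate positions on the 12 plates of batch SB112. Filled points carry the label Erythrocytes and open points do not, and the points of a position lie in a band, 48 to 82 at N12 and 13 to 28 at A22, across totals from 116 to 4113 and 143 to 3683.

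Immune wells at the same positions also held globin. In batch SB112, 554 immune wells lay at the 88 positions, and 91.9% of them had a globin UMI, with a mean of 6.14 per well. At the other 290 positions with immune wells, 19.4% of 2620 wells had one, with a mean of 0.301. Labelled wells had a mean of 14.5, and the 219 wells below the UMI minimum at the 88 positions had a mean of 9.68. Globin stood at 11811 CPM in labelled wells, 2218 in immune wells at the labelled positions and 145 in immune wells elsewhere on the plates. The median total was 990 UMIs in labelled wells and 1918 in immune wells at their positions, so the labelled wells were the shallower ones. The 48 wells of the batch left without a cell held 3 globin UMIs among 993, and the 544 such wells of other batches held 2 among 7497. They lay at the 4 positions of each plate that received no cell. None of these is among the 88 positions, so the empty wells cannot show how much globin a labelled position held without a cell.

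The recurrence was measured as Pearson's r between the counts of a gene at the same positions of a pair of plates, averaged over the 66 pairs of the batch. The points are 380 positions that share their barcodes and primers, so these values are a description without a test. The mean r was 0.733 for Hbb-bs, 0.708 for Hba-a1, 0.671 for Hba-a2 and 0.518 for Hbb-bt. Between plates of different mice it was 0.688, 0.610, 0.591 and 0.489. Over 9899 genes with at least 60 UMIs in the batch, the median was 0.0055. In the 10 other batches with at least 2 plates, the mean r of the globin genes lay between -0.0055 and 0.0465. The most abundant other transcripts of the labelled wells recurred far less by position than globin in this batch. Their mean r was 0.0285 for S100a8, 0.0332 for Tmsb4x and 0.0706 for Malat1, the last above the globin range of the other batches. Which step made globin recur at a position was not tested, and position, barcode and primer cannot be told apart because each position has 1 barcode.

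The 21 globin-rich wells differed from this pattern, since 20 of them lay outside batch SB112. They came from 12 samples of 11 mice. The MET Invasive margin of mouse 26 held 7, all sorted as CD31neg_PA. The Distal normal tissue of mouse 27, the Normal lung of mouse 3 and the Relapse-free lung of mouse 7 held 2 each. The remaining wells came singly from the Normal lung of mouse 2, the Relapse-free lungs of mice 11 and 18, the MET sections of mice 26, 36 and 37, the MET Core of mouse 25 and the MET Invasive margin of mouse 31. By gate, they were 10 of 16224 annotated wells in CD31neg_CD45, 10 of 5467 in CD31neg_PA and 1 of 1453 in CD31neg_PAneg_CD45. The well of batch SB112 was the one at N12 in mouse 18, with 62 globin UMIs of 554. These wells had a median of 1223 UMIs and 272 genes.

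Alpha-globin UMIs outnumbered beta-globin UMIs in each of the 21 wells, with an alpha share of the globin UMIs from 58.1% to 82.3% (median 70.6%). Over all of them it was 71.9% (7539 Hba-a1, 5607 Hba-a2, 3545 Hbb-bs and 1597 Hbb-bt UMIs), with a Wilson interval of 71.2% to 72.5%. The globin-poor wells of batch SB112 had 66.03% (64.5% to 67.5%) and the immune wells of that batch 63.4% (61.9% to 64.8%). Within the beta chains, Hbb-bs made up 68.9% in globin-rich wells, 79.8% in the globin-poor wells of batch SB112 and 81.3% in its immune wells. In the 35 globin-poor wells of other batches the alpha share was 74.9% (70.3% to 78.9%) and the Hbb-bs share 77.3%, and the immune wells of other batches had 64.7% (62.4% to 66.9%) and 76.4%. Summed over wells, the Hbb-bs share was thus lower in globin-rich wells than in each of these sets, but it ran from 32.3% to 83.7% over the 21 wells (median 67.3%), of which 17 lay below the 76.4% of the immune wells of other batches. The globin-poor wells of batch SB112 were near the immune wells in and outside the batch in both measures. Hba-a1 made up 57.3% of the alpha UMIs in globin-rich wells and 59.1% in the globin-poor wells of batch SB112. Hba-a1 and Hba-a2 are near-identical copies and reads with several mapping positions had been excluded, so the split between them is uncertain. The counts do not show how many reads of each globin gene were dropped. The alpha share and the Hbb-bs share carry the same limit. UMIs are read from the 3′ end of a transcript, and the shares are counts, not amounts of protein.

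Embryonic globins were at the floor. The globin-rich wells held 1 UMI of Hbb-y and none of Hba-x or Hbb-bh1, and the theta-globin genes Hbq1b and Hbq1a gave 3 UMIs and 1 UMI.

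Transcripts of heme synthesis, red cell enzymes and late maturation were found in wells with the most globin. Levels are given as non-globin CPM, the UMIs per 1000000 non-globin UMIs, so that globin itself does not lower them, and the 11 wells with at least 50% globin are set beside the 10 wells with 10% to 50% and the immune wells of the same samples. Alas2 gave 23 UMIs in 9 of the 11 wells (4833 non-globin CPM) and none in the 10 wells, and 0.508 in the immune wells. Fech, which inserts iron into the heme ring, gave 10 UMIs in the first wells, 2 in the second and 23.0 non-globin CPM in the immune wells. Tspo2, an erythroid cholesterol-binding membrane protein, gave 8 UMIs and none, and the immune wells held 0.102. The heme synthesis and iron list as a whole, with 17 genes, stood at 88.3 UMIs per 10000 non-globin UMIs (exact Poisson interval 63.6 to 119) in the 11 wells, 5.46 (1.77 to 12.7) in the 10 wells and 2.76 in the immune wells of the same samples. Only 4 of its 17 genes were detected in the 11 wells.

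The list of late maturation and red cell metabolism followed the same order. It reached 294 UMIs per 10000 (247 to 347) in the 11 wells, 41.5 (29.4 to 57.0) in the 10 wells and 33.5 in the immune wells, with 15 of 25 genes detected in the 11 wells. Bpgm, which makes the 2,3-bisphosphoglycerate that loosens oxygen from haemoglobin, gave 17 UMIs in the 11 wells and none in the 10. Car2, a carbonic anhydrase, gave 14 and 5 UMIs. Trim10, a tripartite-motif protein needed for terminal erythroid maturation, gave 8 UMIs in the 11 wells, none in the 10 wells and none in any immune well. The ubiquitin gene Ubb gave 43 and 10 UMIs (9036 and 1092 non-globin CPM, against 2373 in the immune wells). Bnip3l, which drives the removal of mitochondria from reticulocytes, gave 5 UMIs in each set, and Mkrn1, a ubiquitin ligase, gave 7 and 1.

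The red cell membrane list stood at 33.6 UMIs per 10000 non-globin UMIs (19.2 to 54.6) in the 11 wells, from 16 UMIs in 4 wells, at 12.02 (6.00 to 21.5) in the 10 wells and at 7.09 in the immune wells of the same samples. Of its 21 genes, 5 were detected in the 21 wells. The MET Invasive margin of mouse 26 gave 5 of the 11 wells and most of these UMIs, and the other 6 wells held 3 UMIs in 1 well (13.1 per 10000, 2.70 to 38.2), an interval that includes the immune value. Without that sample the heme list stood at 78.4 and the late maturation list at 309. Rhd, a Rhesus protein, gave 2 UMIs, both in the 11 wells. The band 3 anion exchanger gene Slc4a1 gave none in any of the 21 wells, nor did Ank1 of the membrane skeleton. A count of 0 allows up to 215.6 non-globin CPM in these 21 wells.

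Most regulators of early erythroid stages had no UMI in the 21 wells. Gata1 and Klf1, the transcription factors that drive the erythroid program, had no UMI, and neither had Tal1, Gfi1b, Epor, Kit or the transferrin receptor gene Tfrc. The list of 12 transcription factors and receptors nevertheless stood at 7.19 per 10000 (3.45 to 13.2), against 1.23 in the immune wells of the same samples. Its 10 UMIs were 4 of Nfe2 and 6 of Bcl11a, the latter in 1 well that also held 14 UMIs of the B cell list. The cell cycle list gave 4 UMIs (3 Ube2c and 1 Mcm7), with Mki67 and Top2a at 0. The cell cycle level was 2.88 per 10000 (0.783 to 7.36) against 5.40 in the immune wells of the same samples, an interval that includes the immune value. Mitochondrial transcripts gave 3.21% of the non-globin UMIs and ribosomal protein transcripts 5.14%, against 2.76% and 5.71% in those immune wells. The platelet list had no UMI in these wells.

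Leukocyte transcripts were present in the globin-rich wells too. Of the 11 wells with at least 50% globin, 1 from the MET Invasive margin of mouse 26 had 2015 globin UMIs of 3344 and, among the rest, 489 UMIs of S100a8 and 116 of S100a9, which encode the calprotectin subunits of neutrophils. Another from the same sample, with 73.7% globin, had 56 and 14. A well from Distal normal tissue of mouse 27 with 62.6% globin held 18 UMIs of the chemokine gene Ccl5 and 21 of the NK cell list. In the 10 wells with less globin, a well from the Normal lung of mouse 2 held 114 UMIs of Lyz2, the lysozyme of macrophages, beside 2284 globin UMIs, and a well of mouse 3 held 46 UMIs of Ccl5. The leukocyte list with the most UMIs was that of neutrophils in 9 of the 21 wells and of B cells in 4. It was that of T cells, NK cells or monocytes and macrophages in 2 each, and 2 wells reached 3 UMIs in none. Among immune wells outside batch SB112, neutrophil genes led in 16.5%, B cell genes in 5.21% and monocyte and macrophage genes in 39.6%. Most of the 9 neutrophil wells came from 1 sample, the MET Invasive margin of mouse 26. The well of batch SB112 was among the 4 led by B cell genes, with 5 UMIs against 4 of the neutrophil list. Cells had been sorted singly with doublets gated out, and whether a well held RNA of more than 1 cell was not tested.

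**Figure D5:**
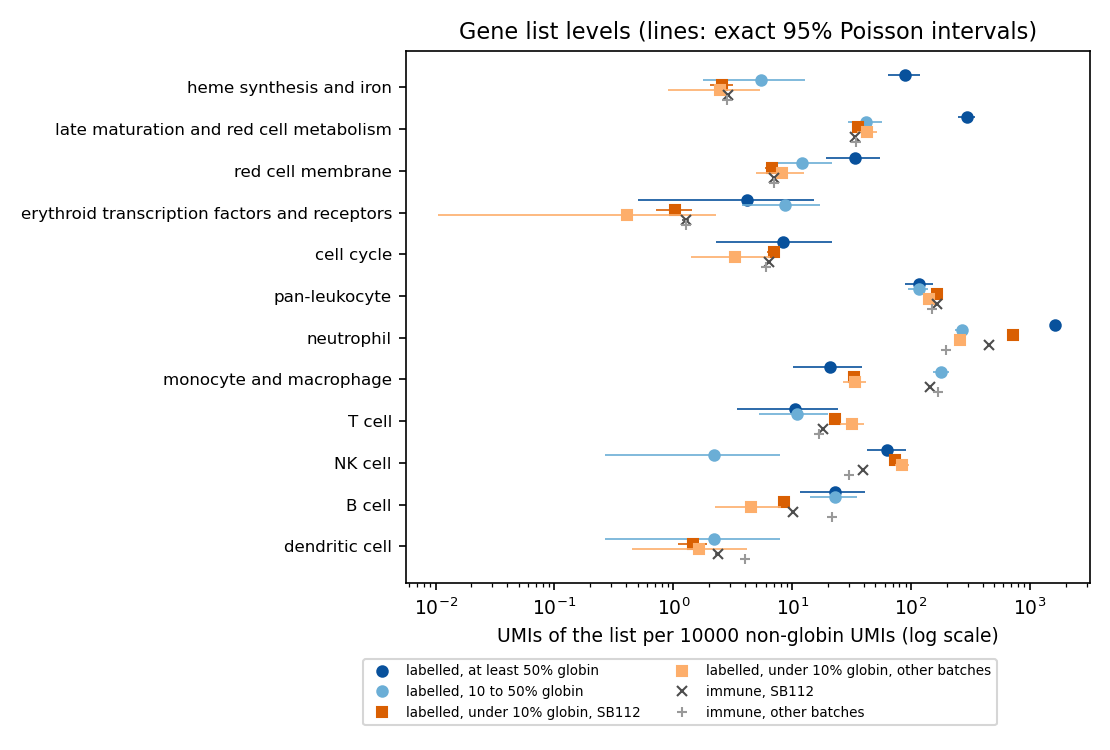
UMIs of 12 gene lists per 10000 non-globin UMIs (log scale) in labelled wells by globin share and batch and in immune wells, with exact 95% Poisson intervals as lines; sets without a UMI are not drawn. Wells with at least 50% globin stand apart in the heme list (88.3) and the late maturation list (294), while globin-poor wells lie beside the immune wells in both (2.56 and 36.1 against 2.89 and 33.6 in batch SB112).

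Leukocyte transcripts were abundant in the globin-poor wells. The erythroid lists other than globin stood near those of the immune wells as sums, while single genes differed in both directions. Genes that immune wells also held weighed on some sums. In the 281 labelled wells of batch SB112, Cd47 gave 150 of the 231 UMIs of the red cell membrane list. The immune wells of the batch had 3206 of 4958. Ubb, of the late maturation list, stood at 2454 CPM in these labelled wells and at 2319 in these immune wells. In the 280 wells of batch SB112, the pan-leukocyte list (Ptprc, Tyrobp, Fcer1g and others) stood at 166 UMIs per 10000 non-globin UMIs, and in the immune wells of the batch it was also 166. The heme list stood at 2.56 (2.05 to 3.16) against 2.89, late maturation at 36.1 (34.1 to 38.2) against 33.6, and red cell membrane genes at 6.79 (5.94 to 7.73) against 7.10. The 35 globin-poor wells of other batches held 2.46 (0.901 to 5.35) for heme and 142 for the pan-leukocyte list, against 2.81 and 150 in the immune wells of those batches. Alas2 was higher in the 280 wells, with 6 UMIs (17.6 non-globin CPM, interval 6.47 to 38.4) against 15 in the immune wells of the batch (2.148, 1.20 to 3.54), and it had no UMI in the 35. Bpgm stood at 111.7 against 17.8 non-globin CPM in the same wells of the batch, Car2 at 129 against 37.9, Fech at 44.1 against 17.6 and Tfrc at 32.3 against 12.03. Lower were the catalase gene Cat, at 11.8 against 52.0, Prdx2, a peroxiredoxin, at 76.4 against 183, Mkrn1 at 108.8 against 199.6, and Slc25a37, the mitochondrial iron carrier of erythroid cells, at 0 against 14.3. Tspo2 and Trim10 had no UMI in either set.

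The leukocyte lists of the globin-poor wells were not in the proportions of the immune wells. The globin-poor wells of batch SB112 were also shallower, with a median of 990 UMIs against 1530 in its immune wells. Whether the proportions go with depth was not tested. Neutrophil genes stood at 717 UMIs per 10000 in the globin-poor wells of batch SB112 and at 454 in its immune wells. NK cell genes stood at 73.3 and 39.2, and T cell genes at 23.1 and 18.2. Monocyte and macrophage genes were fewer, at 33.4 against 145. Counted by the leading list, 160 of the 280 wells (57.1%) were neutrophil, 57 (20.4%) NK cell, 30 (10.7%) T cell and 18 (6.43%) monocyte and macrophage, whereas the immune wells of the batch had 42.7%, 16.04%, 12.9% and 23.7%. The lung epithelial and stromal list was low but also higher, at 3.88 (3.247 to 4.602) against 1.91 (1.81 to 2.02) in the immune wells of the batch. In the globin-poor wells of other batches the order of the leukocyte lists was another one, with 9 of 35 NK cell, 8 T cell and 7 neutrophil. These were 25.7%, 22.9% and 20%, against 15.6%, 16.6% and 16.5% in the immune wells of those batches. Monocyte and macrophage genes led in 11.4% of the 35 wells and in 39.6% of those immune wells.

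S100a8 was the most abundant gene of the labelled wells, ahead of any globin, with 15787 UMIs. It stood at 71590 CPM in the labelled wells of Distal normal tissue of mouse 17, at 47271 in the MET Invasive margin, at 27614 in the MET Core and at 17214 in the Relapse-free lung of mouse 18. S100a9 had the same order (29092, 17181, 8876 and 5029). The NK and cytotoxic T cell gene Nkg7 had the reverse order, with 1532, 3476, 3812 and 4755, and Ccl5, made by the same cells, reached 20885 in the MET Core and 6622 in Distal normal tissue. The leukocyte content of the labelled wells therefore differed between samples in which their globin share was alike.

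Levels in labelled wells were set against the immune wells of the same samples, within batch SB112 and over the other samples with labelled wells, because the batch held 83.6% of the labelled wells but 3174 of these 12796 immune wells. Within the batch, the labelled wells had 1.55 times the CPM level of S100a8, 1.68 times that of S100a9, 2.37 times that of the granzyme gene Gzma and 2.24 times that of Ccl5. In the other samples the ratios were 1.49, 1.46, 1.43 and 1.48, but 1 well of the MET Invasive margin of mouse 26 held 489 of their 1110 S100a8 UMIs. Without that sample the ratios were 0.655 for S100a8, 0.814 for S100a9, 1.77 for Gzma and 1.83 for Ccl5. CPM counts globin in the total. Globin was 33.0% of the UMIs of the 55 labelled wells outside the batch and 1.18% within it. It therefore lowers the ratios of other genes outside the batch, and a ratio below 1 there need not hold among non-globin UMIs. Lyz2 stood at 0.203 times the immune level in the batch and 0.311 times in the other samples, or 0.138 times without 1 well of the Normal lung of mouse 2 that held 114 of their 191 UMIs. In the same order, Ctss, a lysosomal protease of macrophages, stood at 0.181 and 0.208, and the class II antigen gene H2-Ab1 at 0.158 and 0.0650. In the other samples without the well that held the most of the gene, Ctss stood at 0.140 and H2-Ab1 at 0.0421. The globins were 17.9 (Hbb-bs) to 20.6 times (Hba-a1) the immune level within the batch and 2237 (Hbb-bs) to 3505 times (Hba-a2) in the other samples. Alas2 stood at 8.11 times within the batch, from 6 and 15 UMIs. Pooled over all samples, of 1213 genes outside the lists with enough UMIs, the largest ratios were those of Il18r1, an interleukin-18 receptor chain (4.96), Gcnt1, a glycosyltransferase (3.95), H2-Q10 (3.84), Trim56 (3.55) and Eomes, a transcription factor of NK cells (3.54). Within the batch they were 4.99, 2.58, 2.84, 2.35 and 4.02 in the same order, and in the other samples these genes had between 0 and 7 UMIs. The ranking thus differs within the batch, where Stard10 (3.98) and Gramd1a (3.07) stood above Gcnt1, H2-Q10 and Trim56. Il18r1 had no UMI in the Distal normal wells of mouse 17 and 26 in the Relapse-free wells of mouse 18, so its ratio is uneven over samples. These ratios describe wells that the annotation grouped by their genes, and no test was made on them.

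Several abundant transcripts had no marker role. Malat1, a long RNA retained in the nucleus, gave 10386 UMIs in labelled wells. It stood at 292 per 10000 non-globin UMIs in the globin-poor wells of batch SB112, 209 in its immune wells, and 88.4 in the globin-rich wells against 113 in the immune wells of their samples. Among the 11 wells with at least 50% globin the level was 101, with no UMI in 4 of them. Tmsb4x, an actin-binding peptide gene, gave 6628 UMIs, Wfdc17 2757, the ribosomal RNA-related Gm42418 2153 and the ferritin genes Ftl1 and Fth1 1983 and 1848.

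Globin was present beyond the labelled wells in the same samples. Immune wells of batch SB112 had 600 globin CPM and 32.0% of them had at least 1, whereas those of other batches had 46.0 and 3.66%. Thinned to 500 UMIs per well, the shares were 17.8% and 2.19%. The other batches ranged from 2.64 to 163 CPM. Single samples outside batch SB112 passed its 600 CPM. These were Distal normal tissue of mouse 23 (1333 CPM, 25.7% of wells with globin) and of mouse 25 (649, 18.1%). The MET Invasive margin of mouse 26 also did (643, 27.7%), and all remaining samples of other batches lay below 600. Each of 21 immune subpopulations with at least 20 wells both in and outside batch SB112 had a higher level in it (300.0 to 3289 against 4.85 to 2300). In the regulatory T cells it was 758 against 4.85, and in the neutrophils labelled Neut_Lcn2 703 against 85.0.

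Wells below the UMI minimum contained further globin-rich wells. Among 22460 wells from 100 to under 500 UMIs, 14 held at least 20% globin and 6 at least 50%, up to 89.1% in the MET section of mouse 26 (385 of 432 UMIs). Of the 14, 8 were in batch SB112, and 3 of those lay at N12, where 57 to 67 globin UMIs made up 41.9% to 51.6% of small totals. The highest of the batch, with 328 of 407 UMIs in mouse 18, lay at J20, a position that was not labelled on any plate.

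The tissues were compared by the share of labelled wells per sample. Relapse-free lungs had 1.88% ± 3.13 (SD, n = 6) and Normal lungs 0.347% ± 0.332 (SD, n = 3), a difference of 1.53 percentage points (two-sided exact permutation test, p = 0.690, adjusted p = 0.690 over 4 comparisons). MET sections had 0.317% ± 0.530 (SD, n = 13) and Distal normal tissue 1.05% ± 2.61 (SD, n = 14; permutation test, p = 0.427, adjusted p = 0.690). MET Cores had 0.664% ± 1.48 (SD, n = 13) and MET Invasive margins 2.33% ± 3.43 (SD, n = 7; exact permutation test, p = 0.179, adjusted p = 0.690). MET Cores against MET sections gave a permutation p of 0.588 (adjusted p = 0.690). Cores were sorted on photoactivation and MET sections as CD31neg_CD45, so tissue and gate cannot be told apart between them, for any measure. Relapse-free mice 6 and 7 pooled wells of several gates, whereas the Normal lungs were all sorted as CD31neg_CD45. The 3 Normal lungs made up sequencing batch SB102, which held no other sample. Tissue and batch therefore cannot be told apart between Relapse-free and Normal lungs, for any measure. No difference was larger than the SD of the more variable of its groups. In mouse 17 the Core and the margin were also sorted by unlike gates (CD31neg_PA_CD45 and CD31neg_PA). Within the 6 mice with both a Core and an Invasive margin, the margin had the higher share in 4 and both tissues had none in the other 2, with a mean difference of Core minus margin of -1.73 points (exact sign-flip permutation test, p = 0.125, the smallest that 4 informative pairs allow, adjusted p = 0.5). Without mice 17 and 18 the differences were 0.320, -0.0536, -0.900 and -0.0453 points in the same order, and with only globin-rich wells counted they were -0.0893, 0.0304, -0.531 and -0.0157.

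No comparison of the other globin measures between tissues passed an adjusted p of 0.05. The log2 level of globin in immune wells (CPM plus 1) was 6.29 ± 2.02 (SD, n = 6) in Relapse-free and 4.72 ± 2.03 (SD, n = 3) in Normal lungs (exact permutation test, adjusted p = 0.985). It was 4.78 ± 3.02 (SD, n = 13) in MET sections and 4.81 ± 3.75 (SD, n = 14) in Distal normal tissue, and 4.90 ± 3.37 (SD, n = 13) in MET Cores and 5.02 ± 3.46 (SD, n = 7) in MET Invasive margins (permutation tests, adjusted p = 0.985 for each). MET Cores against MET sections also gave an adjusted permutation p of 0.985. Paired by mouse, globin in immune wells was higher in the margin than in the Core in 5 of 6 mice and at 0 in both tissues of mouse 32. The mean paired difference of Core minus margin was -1.14 on the log2 scale (exact sign-flip permutation test, p = 0.0625, the smallest that 5 informative pairs allow, adjusted p = 0.25), against -0.118 unpaired. The pairs were uneven in size, from 578 in the Core and 593 CPM in the margin of mouse 17 to 236 and 643 in mouse 26. The other pairs rested on few globin UMIs. Mouse 28 had 10 in the Core (10.4 CPM) and 5 in the margin (37.0 CPM), and mouse 31 had 3 and 6 (16.7 and 46.8 CPM). In mouse 36 the margin held only 2 globin UMIs (3.61 CPM). The percentage of wells from 100 to under 500 UMIs with at least 20% globin had group means from 0.0523% to 0.249%, and each of its 4 comparisons had an adjusted permutation p of 1.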

How the data were processed

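Sorted single cells, 1 in each well of a 384-well plate, were profiled with SPID-seq, a plate-based 3′ mRNA method with UMIs. The authors deposited raw UMI counts of 52634 gene rows for each of 148 plates, without normalization, and a table of annotated wells. Per the methods, they used HISAT and the mm10 genome, dropped multi-mapping reads and counted exons of the UCSC annotation. The submitters' processing notes name bcl2fastq 2.15.0.4. Wells under 500 UMIs had been discarded by the authors, and the label Erythrocytes is that of their annotation.

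From these counts, wells were joined to labels by well identifier and summed over mouse and tissue. Samples held 57 to 2017 annotated wells, and the 336 labelled wells held 401132 UMIs, so the precision of a level follows from its own UMIs. Poisson and Wilson intervals (95%) and the limit from a count of 0 (3 counts) cover counting error only. Fold changes of labelled over immune wells were not tested, because the annotation grouped wells by their genes. Differences between tissues were tested by two-sided permutation tests over samples, exact or with 100000 resamples, with Benjamini-Hochberg adjustment over 4 comparisons per measure, which were tested on simulated data first. Replicates are separate mice.

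The labelled wells, the gene lists and the tests were chosen with earlier results of these data known. Named genes were the 3 markers, the 4 members of each list with the most UMIs in labelled wells (all detected globins), and outside the lists the 15 genes with the most UMIs and the 15 with the largest ratio over immune wells of the same samples among genes with at least 50 UMIs. Other list members are named for their role, after their values were seen. Some list members are not reported here by name, though list totals include them. The limit of 10% globin and the comparison of plate positions were also chosen after seeing the data. Samples of 1 mouse were taken as pairs because they come from the same animal, and their log2 globin levels in immune wells correlated, with r = 0.669 for MET and Distal normal (13 mice), 0.971 for MET Core and MET Invasive margin (6 mice) and 0.501 for MET Core and MET (12 mice). No doublet caller was run. Promoter sequences came from RefSeq, with all 3 genes matched. Python 3.11.15, numpy 2.4.6, pandas 2.3.3, scipy 1.17.1 and matplotlib 3.10.9 were used. Alternatives were a higher UMI minimum, a log ratio, another pseudocount, other globin limits, pairing by mouse and leaving out mice, samples or batch SB112.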

Additional observations from a re-analysis of the deposited data

Results flagged for a closer look

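In the Relapse-free lungs, the share of labelled wells of mouse 18 was 7.93%, far from the other 5 samples, of which the next was at 2.63%. In the same group, the percentage of wells from 100 to under 500 UMIs with at least 20% globin was 0.712% in mouse 18 and 0 in the other samples. Among the MET Invasive margins that percentage was 1.74% in mouse 17 and 0 in the other 6 samples. Over 3 measures in the 3 groups of 4 to 10 samples, 9 sets of values were examined for such distant samples, and 3 had one, in 2 of the groups. Chance gives about 1 in 20 for evenly spread values, a rate that does not apply to the latter 2, where any single sample above 0 stands apart. All 3 belong to the mice of sequencing batch SB112, and batch and mouse cannot be told apart.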

How the results depend on the processing

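None of the 12 comparisons between tissues passed an adjusted p of 0.05 under any of 58 alternatives (permutation tests, lowest adjusted p 0.25), so no call was gained or lost, and 39 alternatives kept the direction. The direction turned under the other 19. For the share of labelled wells (percentage points), MET Core against MET was -0.0453 without mice 17 and 18 and -0.0717 with mouse as a block. With only globin-rich wells counted, it was -0.0157, Relapse-free against Normal -0.0893 (1.53 with all labelled wells) and MET against Distal normal 0.0304 (-0.729 with all). For log2 globin in immune wells, MET against Distal normal was 0.319 without mice 17 and 18, 0.282 in wells of at least 1000 UMIs and 0.319 paired by mouse. MET Core against MET Invasive margin was 0.225 without those mice and 0.668 in the deeper wells. MET Core against MET was -0.231 without those mice, -0.943 in the deeper wells and -0.629 with the block. For globin-rich wells below the minimum (percentage points), Relapse-free against Normal was -0.0958 without those mice, and MET Core against MET Invasive margin was 0.0250 without them and 0.0231 at a limit of 50% globin. MET Core against MET was 0.0073 at a lower limit of 50 UMIs. Leaving out each Normal lung in turn, Relapse-free against Normal ranged from 1.36 to 1.69 points, from 0.442 to 2.41 on the log2 scale and from -0.0251 to 0.119 points. Pairing by mouse changed no call. The cause of these changes was not tested.

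A limit of 5% globin gave 33 globin-rich wells in place of 21, and 20% gave 18. The summed globin share of labelled wells was 5.65% in all, 33.0% without batch SB112, 13.6% without mouse 17 and 1.06% as a median over wells. Spread could be taken over only the 4 samples of batch SB112, where the globin share had an SD of 0.130, so it leaves out the variation among the other samples. A median of 966 UMIs per labelled well limits what can be seen of genes other than globin, since 1 UMI of such a well is a large share. The alternatives without batch SB112, with other globin limits and without the Invasive margin of mouse 26 or a single well were chosen after seeing the data.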

Other observations

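A few genes besides globin recurred at fixed plate positions in batch SB112. Scgb1a1, the secretoglobin of airway club cells, had the highest mean r between pairs of plates (0.798, from 189 UMIs), and Sftpc, the surfactant protein C gene of alveolar type 2 cells, had 0.624. The plasma cell genes Jchain and Igha had 0.606 and 0.494, and the fibroblast genes Inmt and Dcn 0.307 and 0.305. Fst and Igfbp2, with 61 and 73 UMIs, had 0.598 and 0.331. With the 4 globins these were the 12 genes above 0.3 of 9899. Their UMIs were not gathered at the positions of the labelled wells. Those 88 positions, 23.2% of the plate, held 25.6% of the Sftpc, 21.4% of the Inmt, 16.4% of the Scgb1a1 and 1.88% of the Igha UMIs, but 87.6% of the Hba-a1 UMIs. A single position held 77 of the 189 Scgb1a1 UMIs and 131 of the 180 Jchain UMIs lay at another. In immune wells Scgb1a1 stood at 17.5 CPM (UMIs per 1000000) in batch SB112 and 2.68 in other batches, but Jchain stood lower in batch SB112, at 24.0 against 42.5.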
